A study of Mus musculus with 8 samples.

Results

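The 9 complement genes C1qa, C1qb, C1qc, C1s1, C4b, C3, Cfb, Serping1 and Cd55 were followed across the cell classes of 2 mouse pancreatic tumors. The members were taken by their gene symbols, and all 9 had 1 row each among the 27775 gene rows of both count tables. The tumors came from untreated KPC mice, which carry Pdx-1-Cre, 1 tumor of medium size and 1 of large size. In this model the Pdx-1 promoter drives Cre in pancreatic cells, where it switches on the tumor-forming alleles. Tumors were dissociated with enzymes and single cells were captured with 10x Chromium 3′ chemistry, which counts unique molecular identifiers (UMIs) near the 3′ end of each mRNA. The labels list 4 technical replicates per tumor, pooled in 1 table, so each tumor size is 1 sample, no test was possible, and every interval covers counting error only.

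Complement is a cascade of plasma proteins that marks surfaces for uptake or lysis. C1q, built from the A, B and C chains, binds antibody or other targets, and the serine protease C1s attached to it cleaves C4 and C2. The resulting convertase cleaves C3, the hub of all pathways, and factor B forms the convertase of the alternative pathway. The C1 inhibitor, encoded by Serping1, blocks C1s and C1r, while Cd55 is a membrane protein that speeds the decay of the convertases. The liver makes most plasma complement, and in other tissues macrophages are known as a main source of C1q.

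The medium-size tumor had 2812 cells with a median of 5456.5 UMIs and the large-size tumor 1533 cells with a median of 1037 UMIs, which makes the second the shallower sample. Cell classes were called from other marker genes, in clusters made without the complement genes. The medium-size tumor held 2328 epithelial-like, 240 macrophage-like, 73 mesothelial-like, 67 stromal-like (fibroblast) and 38 endothelial-like cells, and 66 cells of a cluster that stayed unnamed because it carried both epithelial and macrophage markers. The large-size tumor held 852 epithelial-like, 368 gut-like (enterocyte or goblet markers), 253 macrophage-like, 49 stromal-like and 11 endothelial-like cells, and no cluster was mesothelial-like. Whether single epithelial-like cells were carcinoma cells was not tested. The mesothelial-like cluster had 6 of 6 mesothelial markers but also 5 of 10 stromal markers, and the collagen-binding gene Dcn led it. The stromal-like cluster of the medium-size tumor had 8 of 10 stromal and 4 of 7 smooth muscle or pericyte markers, with Tagln and Acta2 among its leading genes. By their own markers 5 of its cells were called smooth muscle or pericyte, and these held 25 of its 319 Serping1 UMIs. The tables shared 5 cell barcodes. Scrublet called 0 cells of the medium-size tumor and 9 of the large-size tumor as doublets, and none was removed. A level below is the number of UMIs of a gene per 1000000 UMIs of the class (CPM), and 3′ counts are not scaled by gene length, so a level was compared between classes and not between genes.

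The C1q genes lie side by side within 18.7 kb of chromosome 4, on the minus strand of GRCm38 (GENCODE M21), C1qb at chr4:136880129-136886187, C1qc at chr4:136889804-136893065 and C1qa at chr4:136895917-136898803. Their counts went together, so the promoter windows of C1qb (chr4:136886151-136886450) and C1qc (chr4:136892865-136893164) are shown with that of C3 (chr17:57228087-57228386), a member that stood highest in mesothelial-like cells. Each window holds 300 bases of the minus strand, from RefSeq on GRCm38.p6, with 250 before the annotated start and 50 after it. Capitals mark matches on either strand to GAGGAA (the core of PU.1 sites, read TTCCTC on the other strand), the NF-kB pattern (GGG and CC with any 5 bases between) or TATAAA.
C1qb: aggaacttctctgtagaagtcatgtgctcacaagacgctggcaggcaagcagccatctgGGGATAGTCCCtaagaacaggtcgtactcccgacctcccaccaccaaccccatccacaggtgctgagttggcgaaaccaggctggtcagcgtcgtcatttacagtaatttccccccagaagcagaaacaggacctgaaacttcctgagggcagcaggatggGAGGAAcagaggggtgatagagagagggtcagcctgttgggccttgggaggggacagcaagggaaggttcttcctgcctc
C1qc: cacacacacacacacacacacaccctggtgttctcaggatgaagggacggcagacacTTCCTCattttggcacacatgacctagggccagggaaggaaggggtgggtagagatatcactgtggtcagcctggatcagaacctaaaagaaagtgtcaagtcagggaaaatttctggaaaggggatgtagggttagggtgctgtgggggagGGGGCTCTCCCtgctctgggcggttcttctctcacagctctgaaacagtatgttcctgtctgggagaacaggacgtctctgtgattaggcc
C3: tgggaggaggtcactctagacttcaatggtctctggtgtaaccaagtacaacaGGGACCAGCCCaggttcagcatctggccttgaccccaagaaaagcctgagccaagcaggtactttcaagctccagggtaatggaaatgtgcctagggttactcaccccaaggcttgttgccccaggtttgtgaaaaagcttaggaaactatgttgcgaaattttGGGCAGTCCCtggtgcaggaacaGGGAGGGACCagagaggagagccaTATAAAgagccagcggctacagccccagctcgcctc
GAGGAA was found in C1qb at position -30 and, on the other strand, in C1qc at position -193, and in none of the windows of C3, C1s1 and Cd55. This hexamer is common, as 28.3% of 32851 windows of the same length held it. The NF-kB pattern was in the windows of all 5 genes with an entry (C1qb, C1qc, C1s1, C3 and Cd55) and in 50.8% of all windows, with some matches overlapping each other on both strands. TATAAA was in the C3 window alone among the 5, 15 bases past the annotated start, against 13.6% of all windows. The STAT pattern TTCNNNGAA was in none of the 5 and in 8.30% of all windows. These are matches of letters and not binding sites. No windows were used for C1qa, C4b, Cfb and Serping1.

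Macrophage-like cells held most C1q. Their C1qa level in the medium-size tumor was 2578 CPM (95% Poisson interval 2476 to 2684), against 14.4 CPM (12.7 to 16.3) in epithelial-like cells, a ratio of 179 (157 to 204). The C1qb level was 2924 CPM in macrophage-like and 21.3 CPM in epithelial-like cells, a ratio of 137 (123 to 153). C1qc stood at 2010 against 13.3 CPM, a ratio of 151 (132 to 173). The lowest, median and highest macrophage-like cell had 0, 7 and 54 UMIs of C1qa, 0, 9.5 and 57 of C1qb, and 0, 6 and 40 of C1qc. Both macrophage-like clusters were alike in this, the larger one (198 cells, led by Wfdc17, Chil3 and Lyz2) with a C1qa level of 2573 CPM and the smaller one (42 cells, led among others by class II genes such as H2-Aa) with 2598 CPM, and their intervals overlapped.

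Macrophage-like cells were above epithelial-like cells in the large-size tumor too. The C1qa level was 907 CPM (779 to 1051) in macrophage-like and 5.68 CPM (2.60 to 10.8) in epithelial-like cells, a ratio of 160 (82.3 to 355). C1qb stood at 693 against 8.20 CPM, a ratio of 84.6 (47.8 to 163), and C1qc at 1570 CPM against 19 UMIs in 852 cells, a ratio of 131 (82.5 to 221). Macrophage-like cells were 8.53% of the cells of the medium-size tumor and held 82.0% of its C1qa, 79.3% of its C1qb and 79.6% of its C1qc UMIs. In the large-size tumor they were 16.5% of the cells and held 89.9%, 86.1% and 90.9%.

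**Figure D1:**
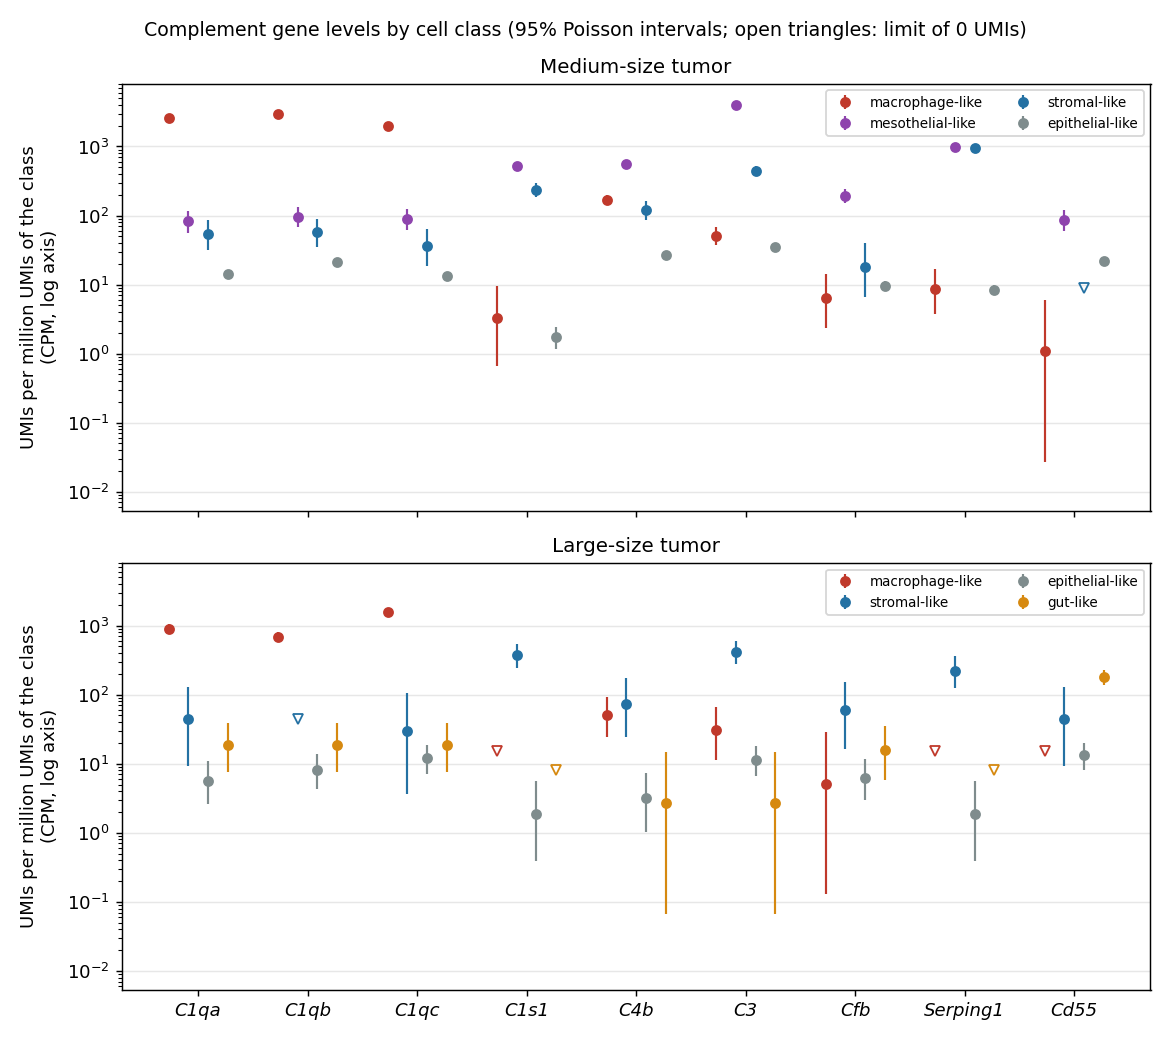
Level of each member (CPM, log axis) in the cell classes of the medium-size (top) and large-size (bottom) tumor, with 95% Poisson intervals; open triangles stand at the limit that 3 counts allow where 0 UMIs were seen. The C1q genes stand highest in macrophage-like cells of both tumors, and C3 and C1s1 stand highest in mesothelial-like cells of the medium-size and stromal-like cells of the large-size tumor. C4b and Cfb stand highest in mesothelial-like cells of the medium-size tumor, where the Serping1 intervals of mesothelial-like and stromal-like cells overlap.

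A UMI of C1qa was seen in 204 of 240 macrophage-like cells (85.0%, exact binomial interval 79.8 to 89.3%) and in 7.47% (6.44 to 8.62%) of epithelial-like cells, both in the medium-size tumor. Median depths were 3516 and 5987.5 UMIs. With every cell thinned to 2500 UMIs the shares were 84.2% and 3.05%. The epithelial-like C1q levels were 0.560% to 0.728% of the macrophage-like ones, and 11 other macrophage markers stood at 0.619% to 12.3% of their own level there, with a median of 1.23%. C1qa was thus below the lowest of these markers (Ms4a7), and C1qb and C1qc were between the lowest and the next (Lyz2, 0.753%). The part of free RNA in these counts was not tested, and they were not read as expression. Over epithelial-like clusters 1 to 8 the 3 chains summed were at 34.8, 28.0, 48.5, 32.4, 46.9, 67.6, 37.5 and 104.5 CPM. The macrophage markers summed in the same clusters were at 321, 297, 280, 451, 235, 420, 580 and 552 CPM. Cluster 8 was thus highest in C1q and next to highest in the markers, and cluster 7 was highest in the markers with C1q at 37.5 CPM. The unnamed cluster, with epithelial and macrophage markers, had a C1qa level of 646 CPM (562 to 739), and 32 of its 66 cells had all 3 chains.

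C1q in the mesothelial-like and stromal-like clusters rested on few cells. The mesothelial-like cluster had C1qa, C1qb and C1qc levels of 82.7, 95.7 and 87.9 CPM, but 1 of its 73 cells held 83 of the 103 C1q UMIs (80.6%), and 62 cells had none. That cell had 8 of 11 macrophage markers and 2 of 6 mesothelial markers, together with 24 UMIs of C3 and 6 of Serping1. Without it the levels were 7.89, 23.7 and 21.0 CPM, against 14.4, 21.3 and 13.3 CPM in epithelial-like cells. In the stromal-like cluster of the medium-size tumor 1 cell held 10 of 18 C1qa UMIs, and 52 of 67 cells had none of the 3 chains. The 2 stromal-like-cluster cells whose own markers were those of macrophages held 11 of the 18 C1qa UMIs. In the large-size tumor 48 of 49 stromal-like cells had no C1q UMI.

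The balance of the C1q chains differed between the tumors. Among macrophage-like cells of the medium one, C1qa made up 34.3% (33.2 to 35.5%) of 6975 C1q UMIs, C1qb 38.9% (37.8 to 40.1%) and C1qc 26.8% (25.7 to 27.8%). In those of the large-size tumor C1qa made up 28.6% (25.1 to 32.3%) of 622 UMIs, C1qb 21.9% (18.7 to 25.3%) and C1qc 49.5% (45.5 to 53.5%). The shares of all 3 chains were thus apart between the tumors by more than their counting intervals. Both macrophage-like clusters of the medium-size tumor had like shares, with intervals for C1qc of 25.8 to 28.2% and 23.7 to 28.3%. The unnamed cluster (28.4%) and the epithelial-like cells (27.2%) there also had C1qc shares near these, while epithelial-like cells in the large-size tumor had a C1qc share of 46.3% (30.7 to 62.6%, 41 UMIs). With every macrophage-like cell thinned to 500 UMIs, C1qc was 25.2% (22.4 to 28.1%) of the C1q UMIs in the medium-size and 52.0% (47.1 to 56.9%) in the large-size tumor. All 3 chains were seen in 193 of 240 macrophage-like cells (80.4%) of the medium-size and 42 of 253 (16.6%) of the large-size tumor. Thinned to 500 UMIs, these shares were 34.6% and 8.30%.

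**Figure D2:**
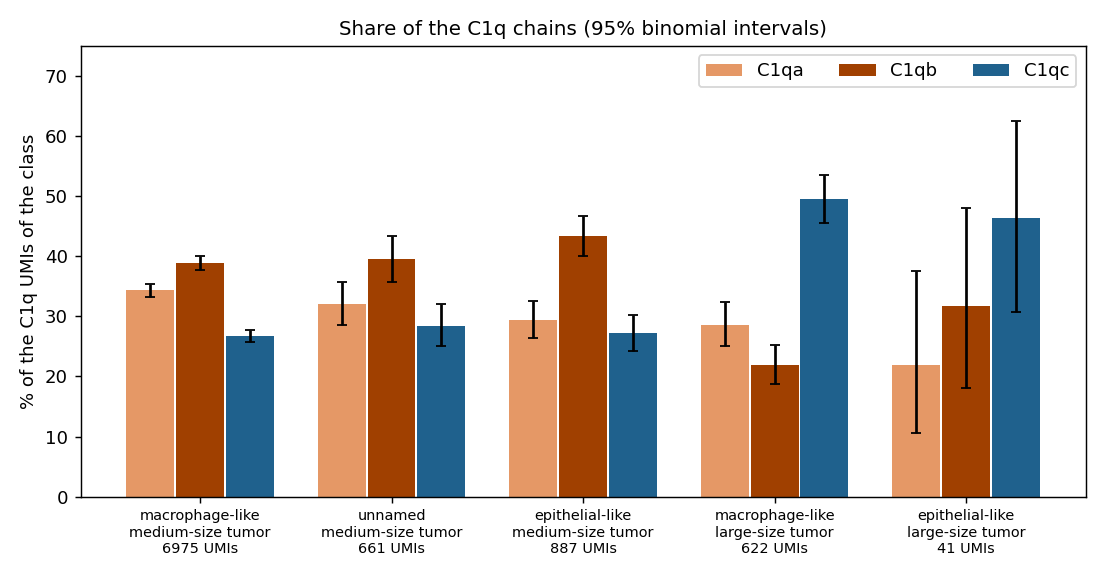
Share of the C1qa, C1qb and C1qc UMIs among all C1q UMIs (%, bars, with exact 95% binomial intervals) in classes of the 2 tumors, the number of C1q UMIs below each group. The C1qc share of macrophage-like cells is 26.8% in the medium-size and 49.5% in the large-size tumor.

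C1s1, which encodes the C1s protease (chr6:124530345-124542359, minus strand), was a gene of the mesothelial-like and stromal-like cells. In the medium-size tumor the C1s1 level was 528 CPM (458 to 605) in mesothelial-like, 238 CPM (188 to 297) in stromal-like, 3.23 CPM (3 UMIs) in macrophage-like and 1.71 CPM (1.16 to 2.43) in epithelial-like cells. Mesothelial-like cells exceeded epithelial-like cells 308-fold (210 to 465) and stromal-like cells 2.22-fold (1.70 to 2.91). These 2 classes held 64.4% and 24.9% of the 317 C1s1 UMIs. In the large-size tumor 25 of 28 C1s1 UMIs were in stromal-like cells, at 370 CPM (240 to 546), and the other 3 were in 1 epithelial-like cell of cluster 9, whose 19 cells also had mesothelial markers at a summed 402 CPM. No C1s1 UMI was seen in the 253 macrophage-like cells there, which allows up to 15.3 CPM. C1q and C1s1, parts of 1 complex, thus had their counts in different classes of cells.

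C4b, the C4 component cleaved by C1s (chr17:34728380-34743882, minus strand), was spread over more classes. Its level in the medium-size tumor was 553 CPM (482 to 633) in mesothelial-like, 168 CPM (143 to 197) in macrophage-like, 120 CPM (86.1 to 164) in stromal-like and 26.8 CPM (24.5 to 29.3) in epithelial-like cells. The macrophage-like and stromal-like intervals overlapped, and the other neighbours in this order were apart. Macrophage-like cells exceeded epithelial-like cells 6.27-fold (5.20 to 7.52), and a C4b UMI was seen in 29.2% of them. The larger macrophage-like cluster had a C4b level of 191 CPM (161 to 225) and the smaller one 82.1 CPM (47.0 to 133). Epithelial-like cells held 52.2% of the C4b UMIs, 485 in all, of which 261 were in the 235 cells of cluster 7. Reads of C1s1 may likewise be shared with its copy C1s2. The C4b level in the large-size tumor was 51.0 CPM (10 UMIs) in macrophage-like, 74.0 CPM (5 UMIs) in stromal-like and 3.15 CPM (5 UMIs) in epithelial-like cells. The neighbouring copy C4a was not analysed here, and reads that fit both copies may be counted under C4b.

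C3, the central component (chr17:57203970-57228136, minus strand), was highest in mesothelial-like cells. Its level was 4047 CPM (3849 to 4253) there, 443 CPM (374 to 520) in stromal-like, 50.6 CPM (37.2 to 67.3) in macrophage-like and 34.8 CPM (32.2 to 37.7) in epithelial-like cells. The mesothelial-like level was 116-fold (106 to 128) that of epithelial-like and 9.14-fold (7.71 to 10.9) that of stromal-like cells, while the macrophage-like and epithelial-like intervals overlapped. C3 was seen in 72 of 73 mesothelial-like cells, with 0, 20 and 102 UMIs in the lowest, median and highest cell. In the stromal-like cluster it was seen in 32 of 67 cells, and the 7 highest cells held 63.9% of its UMIs. The mesothelial-like cells were 2.60% of the cells and held 64.6% (62.6 to 66.5%) of the C3 UMIs. For the large-size tumor the C3 level was 415 CPM (275 to 599, 28 UMIs) in stromal-like, 30.6 CPM in macrophage-like and 11.4 CPM in epithelial-like cells. The stromal-like cluster there also had mesothelial markers at a summed 370 CPM, against 1947 CPM in the mesothelial-like and 154 CPM in the stromal-like cluster of the medium-size tumor. By their own markers, 2 cells of the large-size tumor's stromal-like cluster were called mesothelial and held 3 of its 28 C3 UMIs. The 44 cells called stromal there held 24, at 417 CPM (267 to 620). In the stromal-like cluster of the medium-size tumor 1 cell was called mesothelial, with 0 C3 UMIs. The part of mesothelial cells in the C3 of these clusters was not tested beyond these calls.

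Within the mesothelial-like cluster C3 differed between cells grouped by the call from their own markers. The 39 cells called mesothelial one by one had a C3 level of 5016 CPM (4727 to 5317), the 24 called stromal 2214 CPM (1922 to 2537) and the 9 called epithelial 3328 CPM (2889 to 3815). The 24 cells called stromal in this cluster were thus above the 49 cells called stromal in the stromal-like cluster, at 425 CPM (345 to 517). Serping1 had the same order with smaller differences, with 1134 CPM (999 to 1282), 962 CPM (774 to 1183) and 906 CPM (787 to 1036) in the 39, 24 and 49 cells, the intervals of neighbours overlapping. The 9 cells called epithelial had a lower Serping1 level, 565 CPM (394 to 786), apart from that of the 39 cells.

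**Figure D3:**
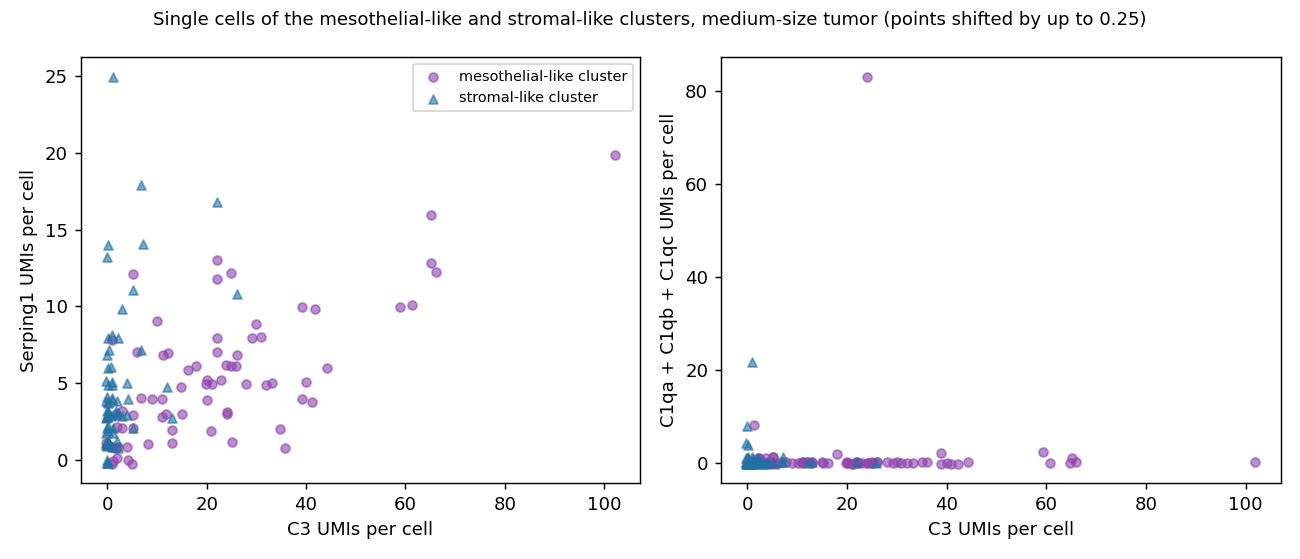
Single cells of the mesothelial-like (circles) and stromal-like (triangles) clusters of the medium-size tumor, with C3 UMIs per cell on the x axis and UMIs of Serping1 (left) or of the 3 C1q genes summed (right) on the y axis; points are shifted by up to 0.25 UMIs. C3 reaches 102 UMIs in mesothelial-like and 26 in stromal-like cells, Serping1 spans like ranges in both, and 1 mesothelial-like cell has 83 C1q UMIs.

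Cfb, factor B of the alternative pathway (chr17:34856374-34862518, minus strand, 85 bases from C2), had a level of 191 CPM (150 to 240) in mesothelial-like cells of the medium-size tumor. It stood at 18.1 CPM (6 UMIs) in stromal-like, 9.62 CPM (8.24 to 11.2) in epithelial-like and 6.46 CPM (6 UMIs) in macrophage-like cells, whose intervals overlapped with their neighbours'. The mesothelial-like level was 19.9-fold (14.9 to 26.3) the epithelial-like and 10.6-fold (4.64 to 29.8) the stromal-like one. Cfb had 21 UMIs in all in the large-size tumor, 10 of them in epithelial-like cells (6.31 CPM, 3.02 to 11.6) and 4 in stromal-like cells (59.2 CPM, 16.1 to 152). The intervals of these 2 classes were apart, while those of all neighbours in the order of the classes overlapped.

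Serping1, the C1 inhibitor (chr2:84765387-84775444, minus strand), was shared evenly between mesothelial-like and stromal-like cells of the medium-size tumor. Its level was 998 CPM (901 to 1103) in the first and 961 CPM (858 to 1072) in the second, a ratio of 1.04 (0.893 to 1.21). It stood at 8.62 CPM (3.72 to 17.0) in macrophage-like and 8.35 CPM (7.07 to 9.79) in epithelial-like cells, a ratio of 1.03 (0.438 to 2.09). A Serping1 UMI was seen in 68 of 73 mesothelial-like and 63 of 67 stromal-like cells, against 2.92% of macrophage-like and 5.24% of epithelial-like cells. Thinned to 2500 UMIs the mesothelial-like and stromal-like shares were 84.9% and 82.1%. Of the large-size tumor's Serping1 UMIs, 15 of 18 were in stromal-like cells, at 222 CPM (124 to 366), and macrophage-like cells had 0 UMIs, which allows up to 15.3 CPM. Of the epithelial-like cells there, 0.352% had a Serping1 UMI.

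Cd55, the membrane inhibitor (chr1:130439027-130462744, minus strand), had another pattern. In the medium-size tumor its level was 85.3 CPM (58.7 to 120) in mesothelial-like, 21.8 CPM (19.7 to 24.1) in epithelial-like and 1.08 CPM (1 UMI) in macrophage-like cells. The 67 stromal-like cells had 0 UMIs, which allows up to 9.04 CPM and is at least 2.42-fold lower than in epithelial-like cells. With classes called cell by cell this direction turned, to a log2 ratio of 0.54. Epithelial-like cells held 90.8% of the 435 Cd55 UMIs, but they also held 18090651 of the 20301669 UMIs of all genes in this tumor. The share of Cd55 was thus near that of any evenly spread gene. Gut-like cells of the large-size tumor led with 179 CPM (139 to 228), 13.5-fold (8.19 to 23.3) the 13.2 CPM (8.20 to 20.2) of epithelial-like cells, and held 72.8% of the 92 UMIs. A Cd55 UMI was seen in 56 of 368 gut-like cells (15.2%) at a median depth of 848.5 UMIs, and in 2.11% of epithelial-like cells at 1455.5 UMIs. No Cd55 UMI was seen in the 253 macrophage-like cells (median depth 688 UMIs), and thinning to 500 UMIs gave 6.52% in gut-like and 0.704% in epithelial-like cells.

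**Figure D4:**
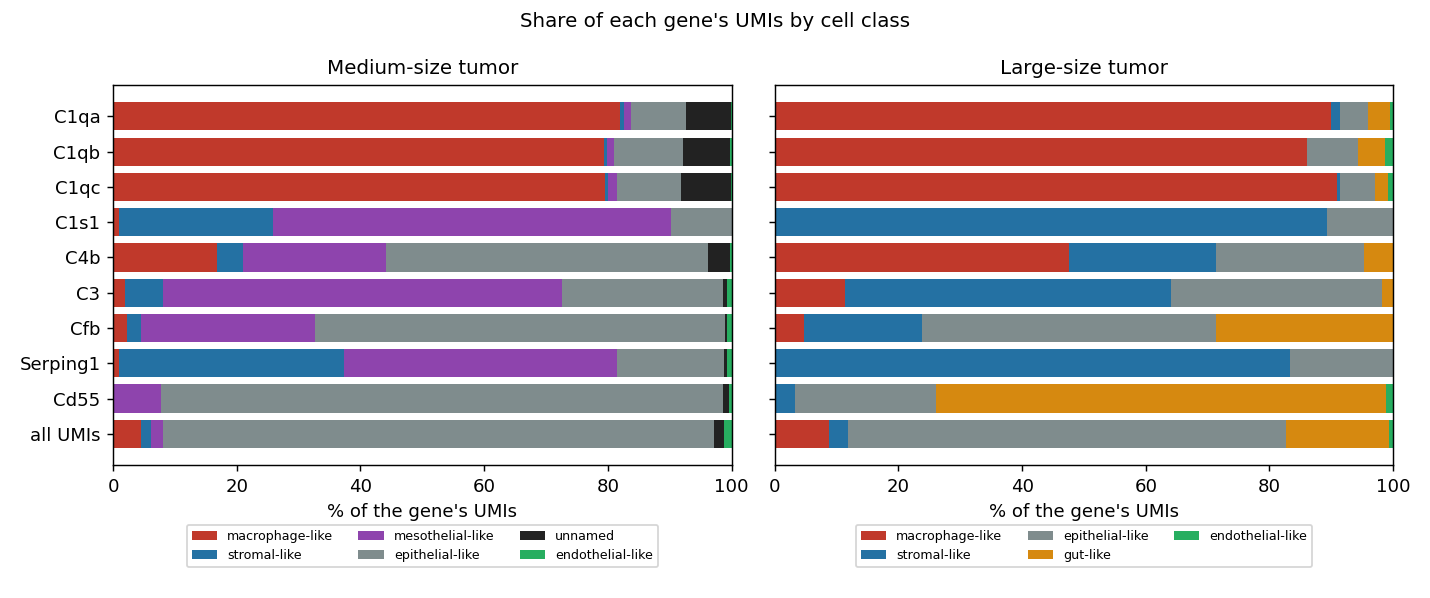
Share of each member's UMIs (%, stacked bars) that lay in each cell class of the 2 tumors, with the share of all UMIs as the last bar of each panel. Macrophage-like cells hold 79.3% to 82.0% of the C1q UMIs of the medium-size tumor, mesothelial-like and stromal-like cells together most of C1s1 and Serping1, mesothelial-like cells 64.6% of C3, and gut-like cells 72.8% of Cd55 in the large-size tumor.

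Joint detection was counted in single cells. C3 was seen in 72 of 73 mesothelial-like cells, so the counts of its pairs follow from the other gene's own detection (68 cells for Serping1, 60 for C1s1, 54 for C4b and 39 for Cfb) and say nothing more about shared cells. A UMI of C3, C1s1 and Serping1 together was seen in 55 of them, and of these genes with C4b and Cfb in 32. In the stromal-like cluster of the medium-size tumor Serping1 was seen without C3 in 31 of 67 cells and with it in 32, while all 5 genes were seen together in 3 cells. The part of the lower levels of C3, C4b and Cfb in this count was not tested.

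A member was counted as higher or lower in a class when its level, with 10 CPM added, was at least 2-fold that of the other class or at most 0.5-fold, among genes with at least 50 UMIs in the cells compared. This filter takes both groups together, so a gene can pass through 1 group alone, and its call is then partly set by the filter. Against the medium-size tumor's epithelial-like cells, 4 of 8 members compared (C1qa, C1qb, C1qc and C4b) were higher in macrophage-like cells, where 6.5% of 10897 genes were, and 1 (Cd55) was lower, where 12.3% were. In stromal-like cells 6 of 9 were higher (C1qa, C1qb, C1s1, C3, C4b and Serping1; 6.92% of 10795 genes) and Cd55 was lower (8.65%). In mesothelial-like cells 9 of 9 were higher, against 5.51% of 10794 genes, and none was lower (7.63%). C1s1, with 31 UMIs in epithelial-like cells, was compared only through its 79 stromal-like and 204 mesothelial-like UMIs. It was not compared for macrophage-like cells. The median log2 ratio of the members was 1.35, 1.39 and 3.36 in these 3 classes, beside -0.29, -0.13 and -0.18 over all genes compared. Over stromal-like cells, 4 of 7 members (C1s1, C3, C4b and Cfb) were higher in mesothelial-like cells, against 8.19% of 2101 genes, and none was lower (9.66%). Of these, C4b and Cfb passed the filter only through the mesothelial-like cells (214 and 74 UMIs, against 40 and 6 in stromal-like cells). The C1q genes in the stromal-like and mesothelial-like counts were those that rest on few cells. With only the cells whose own markers gave the class of their cluster, 4 of 9 members (C3, C1s1, C4b and Serping1) were higher in stromal-like and 6 of 9 in mesothelial-like cells. The share of all genes past the fold was not computed for these cells, so these counts have no background. The log2 ratios turned below 0 for C1qa (-0.31 and -1.21) and C1qb (-0.42 and -0.14). Of these only the mesothelial-like C1qa was past 2-fold.

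In the large-size tumor 3 of 3 members with enough UMIs (C1qa, C1qb and C1qc) were higher in macrophage-like than in epithelial-like cells, where 8.84% of 4062 genes were, and none was lower (24.1%). They had enough only through the macrophage-like cells (178, 136 and 308 UMIs, against 9, 13 and 19), so this count was largely set by the filter. Only 1 member, Cd55, had enough UMIs to compare gut-like with epithelial-like cells, and it was higher (11.9% of 4366 genes were higher and 19.7% lower). It too had enough only through the class where it was high (67 UMIs in gut-like and 21 in epithelial-like cells). No member reached 50 UMIs in the stromal-like and epithelial-like cells together, so none was counted there, where 7.77% of 3834 genes were higher and 22% lower. Their stromal-like levels still exceeded the epithelial-like ones by more than the counting intervals for C1s1 (196-fold, 59.7 to 1012), Serping1 (117-fold, 33.2 to 633), C3 (36.5-fold, 19.5 to 70.1), C4b (23.5-fold, 5.40 to 102) and Cfb (9.39-fold, 2.15 to 32.6).

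Levels were not uniform over the epithelial-like clusters of the medium-size tumor. C4b ranged from 4.96 to 192 CPM over the 8 clusters, and its highest level (169 to 217) was in cluster 7, the 235 cells led by Dmbt1, Lcn2, Mmp7 and Sftpd, where 47.7% of the cells had a UMI. That was 14.3-fold (11.9 to 17.2) the level of the other epithelial-like cells, and above the stromal-like level of 120 CPM (86.1 to 164). C3 (140 CPM, 5.35-fold) and Serping1 (35.3 CPM, 5.73-fold) were also highest in cluster 7. C2, the neighbour of Cfb and partner of C4b in the convertase, was highest there too, at 17.6 CPM and 7.98-fold (4.57 to 13.7) on 24 UMIs. Cfb did not follow them, with 11.8 CPM (6.72 to 19.1) in cluster 7 and a range of 2.67 to 14.1 CPM over the clusters.

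Cluster 4 (285 cells, led by Tff3, Ly6d and Reg1) had the highest Cd55, 94.7 CPM (80.3 to 111), 6.43-fold (5.21 to 7.90) the other epithelial-like cells, with a UMI in 37.2% of its cells. Cluster 7 followed with 47.0 CPM (36.2 to 60.1). Clusters 4 and 7 each had 3 of 6 goblet markers and 0 of 8 enterocyte markers, and the other 6 epithelial-like clusters had none of either. C3 was at 75.1 CPM (63.2 to 88.7) in cluster 6, led by Krt17 and Cldn4, and 60.5 CPM (49.0 to 73.7) in cluster 4. In the 5 other clusters C3 stood at 10.8 to 24.1 CPM, C4b at 4.96 to 8.61 CPM and Serping1 at 2.52 to 4.96 CPM. Summed mesothelial markers were 3.42 to 11.4 CPM and stromal markers 27.5 to 44.4 CPM over the 8 clusters, with 10.3 and 30.1 CPM in cluster 7 and 4.36 and 39.9 CPM in cluster 4, all within the range of the other clusters or, for mesothelial markers in cluster 7, second to cluster 1. Summed macrophage markers were highest in cluster 7 (580 CPM, beside 451 CPM in cluster 4), and their part in its C4b was not tested.

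**Figure D5:**
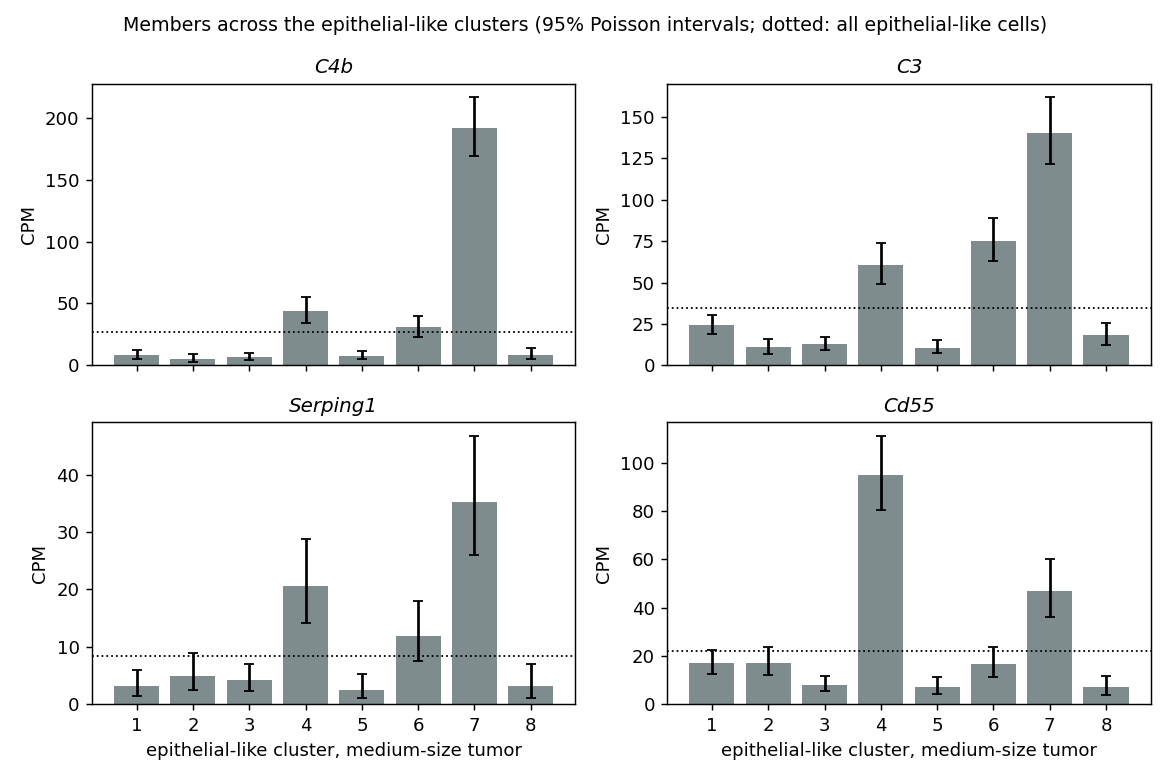
Level (CPM, bars, with 95% Poisson intervals) of C4b, C3, Serping1 and Cd55 in the 8 epithelial-like clusters of the medium-size tumor, the dotted line giving the level over all epithelial-like cells. C4b, C3 and Serping1 peak in cluster 7 and Cd55 peaks in cluster 4.

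Between the tumors, no member was higher in the large-size tumor in any class compared (2.39% of genes were in epithelial-like, 5.58% in macrophage-like and 8.8% in stromal-like cells). Of 8 members compared in epithelial-like cells, 2 were lower in the large-size tumor, where 6.95% of 10816 genes were. C4b stood at 3.15 against 26.8 CPM, 0.118-fold (0.0380 to 0.276), and C3 at 11.4 against 34.8 CPM, 0.326-fold (0.192 to 0.519). Each of the 8 epithelial-like clusters of the medium-size tumor was left out in turn. Without cluster 7 the log2 ratios, with 10 CPM added, were -0.83 for C4b and -0.76 for C3, beside -1.48 and -1.07 with it, and neither was counted. The plain ratios without it were still below 1, at 0.236-fold (0.0757 to 0.558) for C4b and 0.433-fold (0.254 to 0.692) for C3. C3 alone was no longer counted without cluster 6 (-0.91) or cluster 4 (-0.99). In macrophage-like cells 3 of 5 members were lower (C1qa, C1qb and C4b), where 11.2% of 2689 genes were. The ratios were 0.352 (0.300 to 0.410) for C1qa, 0.237 (0.198 to 0.282) for C1qb and 0.303 (0.143 to 0.573) for C4b, and 0.781 (0.690 to 0.882) for C1qc. In stromal-like cells 1 of 3 members was lower, where 18.9% of 1182 genes were. It was Serping1, at 222 against 961 CPM, 0.231-fold (0.128 to 0.387), while C3 (0.936-fold, 0.601 to 1.41) and C1s1 (1.56-fold, up to 2.47) had intervals that include no difference. Size, animal, capture and depth (1037 against 5456.5 UMIs per cell) cannot be told apart here.

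Of the wider list of 52 complement genes, 51 had a row, and 26 had at least 50 UMIs in the medium-size and 12 in the large-size tumor. None of the 7 genes of the terminal pathway, which forms the membrane pore, reached 50 UMIs, and 8 genes of the list had 0 UMIs in both tumors. Set against epithelial-like cells in the medium-size tumor, 13 of 23 list rows compared were higher in macrophage-like, 10 of 21 in stromal-like and 12 of 21 in mesothelial-like cells, and 3, 3 and 1 were lower. Over all genes compared these shares were 6.5%, 6.92% and 5.51% higher and 12.3%, 8.65% and 7.63% lower. The stromal-like count includes C1qa and C1qb and the mesothelial-like count all 3 C1q genes, which rest on few cells there. In macrophage-like cells these included Cfp, properdin of the alternative pathway (550 CPM), Itgb2, a chain of complement receptor 3 (308 CPM), and the anaphylatoxin receptors C5ar1 (134 CPM) and C3ar1 (106 CPM). Clu (clusterin), an inhibitor of the terminal complex, was lower in macrophage-like, stromal-like and mesothelial-like cells, and 96.7% of its 231529 UMIs were in epithelial-like cells, at 12371 CPM.

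Other genes of the cascade differed in their classes. C1ra, the protease that activates C1s, had a level of 295 CPM in mesothelial-like and 54.2 CPM in stromal-like cells and 0.50 CPM in epithelial-like cells. C2 stood at 189, 54.2 and 3.37 CPM in these classes, with 0 UMIs in the 240 macrophage-like cells, which allows up to 3.23 CPM. Cfi, the protease that inactivates C3b and C4b, stood at 69.5 CPM in epithelial-like, 33.6 CPM in mesothelial-like and 7.54 CPM in macrophage-like cells. Cfp was at 15.5 CPM in mesothelial-like cells, under its macrophage-like level, and Cfd, the protease that cleaves factor B, had 0 UMIs in all of these classes.

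The genes most like each member over the 14 clusters of the medium-size tumor were found by Pearson's r of log2(CPM + 10) among 7838 genes, as a description over clusters that share 1 library. The C1q genes were closest to each other (r of 0.994 for C1qa and C1qb), followed by Fcgr3 or Lyz2. C1s1 was closest to Ptgis (0.991) and Rarres2 (0.990), and Serping1 to Col3a1 (0.963) and Col1a2 (0.958). C3 was closest to Gas6 (0.938), Cfb to Nkain4 (0.943), a mesothelial marker, C4b to Vwa5a (0.893) and Cd55 to Entpd2 (0.889).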

How the data were processed

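The authors processed the reads with Cell Ranger, and the submitters' notes name the build mm10, while versions are not given in the sources used here. The deposited values are raw UMI counts per gene and cell, 1 table per tumor, matched to the tumor by the library name in the titles. Of the gene rows, 13 mitochondrial ones hold 0 UMIs in both tables. No cell was removed. Clusters were made in each tumor with Seurat 5.3.0 (log normalization to 10000, 2000 variable genes without the complement list, 10 principal components, resolution 0.8). A cluster took a class name when at least 3 of its markers were seen in at least 10% of its cells at 25% or more of the level of the highest cluster, and no other class reached 60% of its markers. These cutoffs came from an earlier analysis that already knew the levels of the markers, and the members, the complement list and the marker lists were chosen with earlier results of these data known. UMIs were summed per class and given as CPM with exact Poisson intervals, shares with exact binomial intervals (95%), and a count of 0 with the limit that 3 counts allow. With 1 sample per tumor size no test was run. The named genes were the members, other genes of the complement list with at least 50 UMIs in the medium-size tumor, and for each member the 3 genes with the highest r among genes with at least 200 UMIs. Doublet scores came from Scrublet in scanpy 1.11.5 and TMM factors for an alternative scaling from edgeR 4.0.16. The counting of higher and lower genes was tested on simulated data. The full genotype and 1 gene of the complement list are not reported here.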

Additional observations from a re-analysis of the deposited data

Results flagged for a closer look

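Cd55 in stromal-like cells was on different sides of epithelial-like cells in the 2 tumors, with a log2 ratio (10 CPM added) of -1.67 in the medium-size tumor and 1.23 in the large-size tumor. The first rests on 0 UMIs in 67 cells, and the second on 3 UMIs in 2 of 49 cells, 3.35-fold with an interval of 0.641 to 11.2 that includes no difference. With classes called cell by cell the medium-size log2 ratio was 0.54, on the same side as the large-size tumor. Cd55 had too few UMIs in the stromal-like and epithelial-like cells of the large-size tumor to be counted there, and the difference between the tumors was not tested.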

How the results depend on the processing

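In all, 19 alternatives were tried, 6 of them chosen after seeing the data. Of 762 recomputed log2 ratios of members, 673 moved by less than their interval, 79 by more and 10 turned direction. A turn was recorded only for the 29 counted ratios, and changes of sign in the others are among the 673 or the 79. The 29 counted ratios fell under 2-fold 23 times. With classes called cell by cell the log2 ratios that turned were, over epithelial-like cells (medium-size tumor), -0.35 for C1qa, -0.40 for C1qb and 0.54 for Cd55 in stromal-like cells, and -1.69 for C1qa, -0.39 for C1qb and -0.14 for C1qc in mesothelial-like cells. With only cells whose own markers gave the class they were -0.31 for C1qa and -0.42 for C1qb in stromal-like, and -1.21 and -0.14 in mesothelial-like cells. The count of members higher in macrophage-like cells was, for the medium-size tumor, 4 under every alternative, in stromal-like cells it was 4 to 7 and in mesothelial-like cells 6 to 9. In macrophage-like cells of the large-size tumor it was 3 or 4, except 1 with at least 200 UMIs required, which leaves 1 member to compare. The count of members apart between the tumors in epithelial-like cells was 2, but 5 with 1 CPM added, 0 with 50 CPM added, 4 with classes called cell by cell, 1 with cells thinned, 1 by the mean over cells, 1 without cluster 4, 1 without cluster 6 and 0 without cluster 7 of the medium-size tumor. The cause of these changes was not tested. The share of all genes past the fold was computed for the main setting only, so the counts under the alternatives have no background. At a resolution of 0.4 and with 20 principal components no stromal-like or mesothelial-like cluster was named in the medium-size tumor, so these gave no value there. No paired analysis was possible because the technical replicates are pooled in 1 table per tumor, and for the same reason no replicate could be left out. In the large-size tumor depth limits the low members, as a count of 0 in its stromal-like cells allows up to 44.4 CPM.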
